A study of Mus musculus with 24 samples.

Results

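Choroid plexus genes were followed here as a measure of how much choroid plexus each brain dissection carried. The 10 genes (Ttr, Sostdc1, Calml4, Folr1, Kl, Clic6, Otx2, Aqp1, Enpp2 and Prlr) were taken by symbol from the 57126 gene IDs of the count files, and all 10 were found and passed the filter on low counts in both tissues. They were named as markers of the choroid plexus epithelium, but with earlier results of these data known. The study took both brain regions, cerebellum and hippocampus, from 12 mice. Their strain, BALB/cNctr-Npc1m1N/J, is a model of Niemann-Pick disease type C, in which loss of Npc1 blocks the export of cholesterol from lysosomes. Vehicle (PBS:PEG400) was injected intraperitoneally into 4 Npc1+/+ and 4 Npc1-/- mice. A further 4 Npc1-/- mice received dipyridamole, which inhibits phosphodiesterases and nucleoside transport, at 30 mg/kg in that vehicle. All mice were injected 5 days a week from postnatal day 28. The Npc1+/+ mice were 4 females killed at postnatal day 65. The Npc1-/- mice were killed at postnatal day 63 and comprised 1 female and 3 males with vehicle and 2 females and 2 males with dipyridamole, so that age went with genotype. The Npc1-/- mice carry the deletion in every cell, and no transgene or Cre was involved.

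The choroid plexus is a sheet of secretory epithelium around a core of vessels and stroma that hangs in the brain ventricles and makes cerebrospinal fluid. The lateral ventricle plexus lies against the hippocampus and the fourth ventricle plexus lies under the cerebellum, so either can stay on a dissected piece. Of the 10 genes, Ttr (transthyretin) and Folr1 (the folate receptor) encode carriers of thyroid hormone and folate into the fluid, Aqp1 a water channel, Clic6 an intracellular chloride channel protein, Kl (klotho) a coreceptor for FGF23, Prlr the prolactin receptor, Enpp2 (autotaxin) a secreted enzyme that makes lysophosphatidic acid, Sostdc1 a secreted BMP and Wnt antagonist, Calml4 a calmodulin-like protein and Otx2 a homeodomain transcription factor required to build and keep the plexus. Kl is also expressed by Purkinje cells and other neurons, Enpp2 by oligodendrocytes, and Otx2 by some neurons.

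Expression was read on an Ion AmpliSeq Transcriptome Mouse panel, in which a short piece of each gene is amplified. Values below are CPM, the counts of a gene scaled to the library size. Since each gene has its own amplicon, CPM is compared between libraries for a gene and not between genes. Totals ran from 1833609 to 11590081 counts per library, median 7.98 M, and the shallowest was the cerebellum of Npc1-/- vehicle mouse 2. Npc1 was at 98.0 to 108 CPM in Npc1+/+ cerebellum and at most 37.7 CPM in Npc1-/- cerebellum, and the Npc1+/+ and Npc1-/- libraries did not overlap in either tissue. Cerebellar identity genes summed to 4277 to 6022 CPM in cerebellum and to 60.9 to 127 CPM in hippocampus. Hippocampal identity genes summed to 1073 to 1670 CPM in 11 of 12 hippocampal libraries and to 521 CPM in that of Npc1-/- dipyridamole mouse 4, which also had the highest cerebellar sum of the hippocampal libraries. That library is treated as apart in its tissue because of its hippocampal sum, although the gap test described near the end flagged neither of its sums. Values that rest on it are given with and without it. Nothing in the labels pools animals, and p-values measure the spread between these mice.

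In the hippocampus the choroid plexus genes were high in 5 libraries and much lower in the other 7, and every group held libraries of both kinds. Ttr was at 2124, 2655, 23.7 and 44.4 CPM in the Npc1+/+ vehicle mice 1 to 4. It was at 3943, 7368, 64.6 and 502 CPM in Npc1-/- vehicle mice 1 to 4. In the Npc1-/- dipyridamole mice 1 to 4 it was at 4635, 29.2, 265 and 63.5 CPM. Thus 5 libraries stood at 2124 CPM or more (Npc1+/+ mice 1 and 2, Npc1-/- vehicle mice 1 and 2, Npc1-/- dipyridamole mouse 1) and the other 7 at 502 CPM or less, and the 3 groups overlapped over almost their whole range. The highest library had 312 times as much Ttr as the lowest. In bulk tissue, fewer choroid plexus cells and less of these RNAs per cell cannot be told apart.

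**Figure D1:**
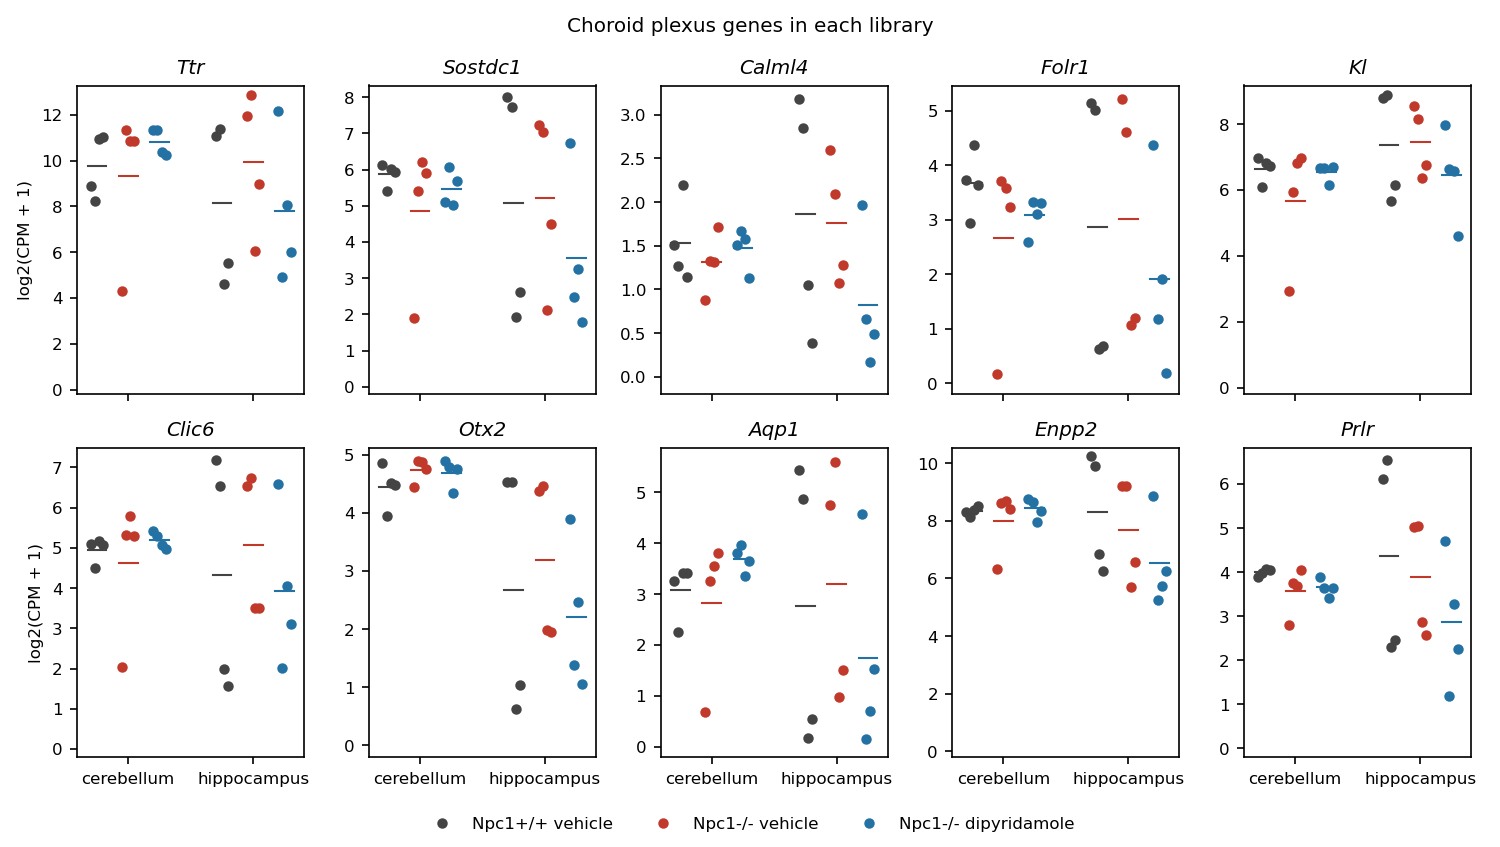
Level of each of the 10 choroid plexus genes, as log2(CPM + 1), in each library (points, mice 1 to 4 from left to right in each group), with the group mean as a line. In hippocampus 5 libraries lie above the other 7 for every gene, and in cerebellum 1 Npc1-/- vehicle library lies far below the other 11 for Ttr, Sostdc1, Folr1, Kl, Clic6, Aqp1 and Enpp2.

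The other 9 genes split the hippocampal libraries in the same way. For all 10 genes the largest gap between neighbouring libraries in hippocampus, on the log2(CPM + 1) scale, fell between the same 7 lower and 5 higher libraries. It was widest for Aqp1, where the 7 lower libraries were at 0.116 to 1.89 CPM and the 5 higher at 22.6 to 47.1 CPM, and narrowest for Calml4, with 0.125 to 1.42 CPM against 2.91 to 8.09 CPM. Clic6 (ENSMUSG00000022949.10, GRCm39 chr16:92282624-92338131, plus strand) was at 145, 92.4, 2.96 and 1.96 CPM in the Npc1+/+ vehicle mice 1 to 4. It was at 92.1, 107, 10.4 and 10.4 CPM in the Npc1-/- vehicle mice and at 95.8, 3.01, 15.5 and 7.58 CPM in the dipyridamole mice. The 5 higher libraries thus lay between 92.1 and 145 CPM for Clic6, and none of the other 7 exceeded 15.5 CPM.

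Sostdc1, the BMP and Wnt antagonist, ran from 2.44 to 21.5 CPM in the 7 lower hippocampal libraries and from 106 to 256 CPM in the 5 higher. Folr1 was counted 372, 266, 228, 86 and 209 times in the 5 higher libraries and between 1 and 22 times in the others. Prlr ran from 1.27 to 8.74 CPM and from 25.1 to 92.0 CPM. Kl was the gene of the set with the second narrowest gap, with 23.3 to 106 CPM in the 7 lower libraries and 252 to 469 CPM in the 5 higher, and the lowest value, 23.3 CPM, was in the library of dipyridamole mouse 4 that stands apart. Enpp2 had 37.3 to 114 CPM in the lower libraries and 465 to 1226 CPM in the higher. Both genes have other sources in the brain, as said above.

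These genes were among the most variable of the hippocampal transcriptome within groups. Of 11877 genes with a mean of at least 2 CPM in hippocampus, ranked by the within-group SD of log2(CPM + 1), Ttr was at rank 2 (SD 3.29), Sostdc1 at rank 5, Aqp1 at rank 7, Clic6 at rank 8 and Folr1 at rank 12. Enpp2, Prlr, Otx2 and Kl followed at ranks 17, 18, 20 and 26, and Calml4 was at rank 75. The median gene had an SD of 0.27. In cerebellum Ttr, Sostdc1, Kl, Folr1, Clic6, Aqp1 and Enpp2 were at ranks 5 to 61 of 11918 genes. Prlr was at rank 3171 and Otx2 at rank 4928 there, and Calml4 was under the 2 CPM needed. As a share of the library, the 10 genes held 0.827% of all counts in the hippocampus of Npc1-/- vehicle mouse 2 (95% Wilson interval 0.818 to 0.836%) and 0.0165% in that of Npc1-/- dipyridamole mouse 2 (0.0157 to 0.0173%). Both intervals cover counting error only, since copies of 1 molecule made by PCR are counted separately.

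In the cerebellum 1 of 12 libraries was low for most of these genes, and the other 11 differed less among themselves than the hippocampal libraries did, with Ttr from 297 to 2607 CPM, Aqp1 from 3.74 to 14.6 CPM and Folr1 from 4.98 to 19.6 CPM. Ttr was at 479, 297, 1982 and 2062 CPM in the Npc1+/+ vehicle mice 1 to 4. It was at 18.6, 2607, 1854 and 1865 CPM in the Npc1-/- vehicle mice and at 2575, 2575, 1309 and 1195 CPM in the dipyridamole mice. The library of Npc1-/- vehicle mouse 1 was low by itself, and the 3 groups overlapped. In that library Sostdc1 was at 2.75 CPM against 31.3 to 72.4 CPM in the other 11, Kl at 6.59 CPM against 59.8 to 125 CPM, Clic6 at 3.11 CPM against 21.4 to 54.0 CPM, and Enpp2 at 79.3 CPM against 248 to 433 CPM. Folr1 had 1 count there and 24 to 153 counts elsewhere. The same mouse had one of the 5 high hippocampal libraries, with Ttr at 3943 CPM.

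Otx2 (ENSMUSG00000021848.17, GRCm39 chr14:48895134-48911276, minus strand) was not low in the 1 cerebellar library where most of the others were. In the cerebellum of Npc1-/- vehicle mouse 1 it was at 20.7 CPM, inside the range of the other 11 cerebellar libraries (14.4 to 28.7 CPM), while Ttr there was at 18.6 CPM. In hippocampus it was at 22.1, 22.2, 0.538 and 1.06 CPM in the Npc1+/+ vehicle mice 1 to 4. It was at 19.7, 21.1, 2.95 and 2.84 CPM in the Npc1-/- vehicle mice and at 13.9, 1.62, 4.50 and 1.08 CPM in the dipyridamole mice. In hippocampus Otx2 was thus low where Ttr was low, which did not hold for that cerebellar library. Over the 12 cerebellar libraries Otx2 had a Pearson r of 0.39 with the mean of the other 9, and without that library r was 0.70, given as a description. Calml4 was lowest in that cerebellar library, at 0.838 CPM or 7 counts, against 1.18 to 3.59 CPM in the other 11, and its cerebellar counts were only 3 to 28 in any library. Prlr was at 5.99 CPM there against 9.66 to 15.7 CPM in the other 11.

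**Figure D2:**
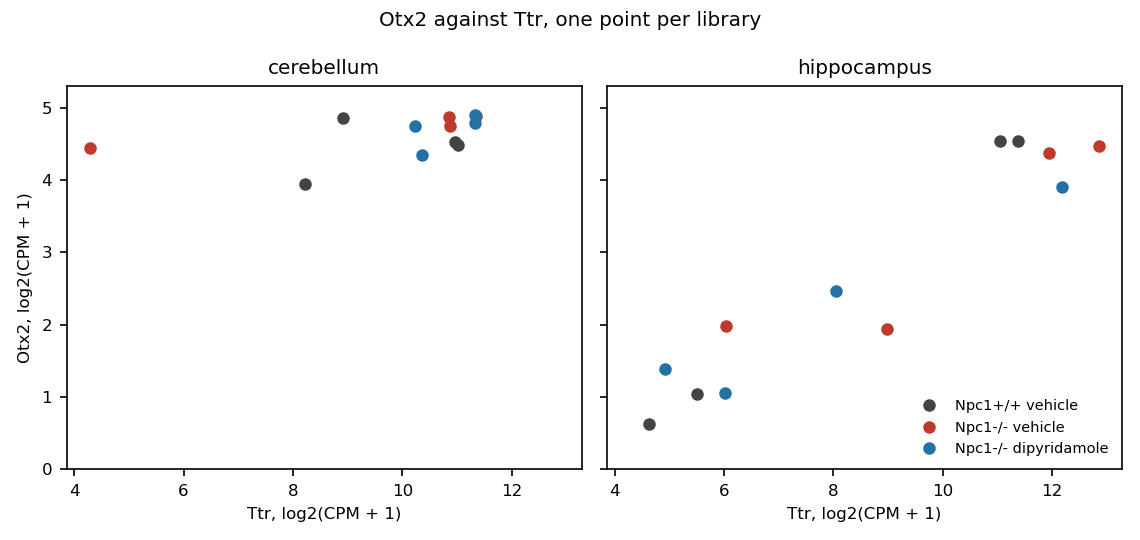
Otx2 against Ttr, both as log2(CPM + 1), with 1 point per library coloured by group, for cerebellum (left) and hippocampus (right). Otx2 is lowest where Ttr is low in hippocampus, whereas the cerebellar library with Ttr at 18.6 CPM keeps Otx2 at 20.7 CPM.

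To place the libraries on a single scale, a choroid plexus score was taken as the mean over the 10 genes of log2(CPM + 1). In hippocampus the score was 6.97, 6.82, 2.58 and 2.72 in the Npc1+/+ vehicle mice 1 to 4, 6.54, 6.58, 3.17 and 3.88 in the Npc1-/- vehicle mice and 6.19, 2.59, 3.62 and 2.73 in the dipyridamole mice. No library lay between 3.88 and 6.19. In cerebellum it was 5.26, 4.67, 5.59 and 5.40, then 2.65, 5.36, 5.53 and 5.50, then 5.40, 5.54, 5.03 and 5.24, in the same order of groups and mice. The 5 high hippocampal libraries exceeded every cerebellar library, and the 7 low ones lay under all cerebellar libraries other than that of Npc1-/- vehicle mouse 1, which was within their range.

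**Figure D3:**
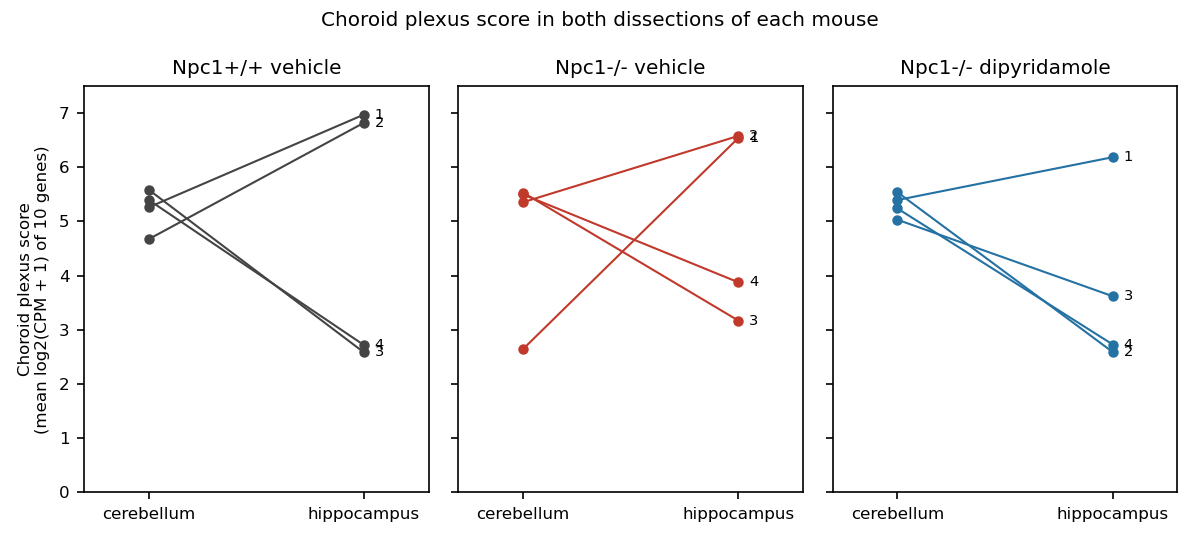
Choroid plexus score, the mean log2(CPM + 1) of the 10 genes, in the cerebellum and the hippocampus of each mouse, with lines joining the 2 dissections of a mouse and its number at the right. The hippocampal score is above the cerebellar score in 5 of 12 mice, and each group holds both directions.

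Mice differed in which of their dissections carried more of these RNAs. The hippocampal score was above the cerebellar in 5 of 12 mice, by 1.71 and 2.15 in Npc1+/+ mice 1 and 2, by 3.90 and 1.22 in Npc1-/- vehicle mice 1 and 2, and by 0.79 in dipyridamole mouse 1. In the other 7 mice it was lower by between 1.41 and 3.00. Because the hippocampal values form separate sets, no correlation over all mice is given.

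Within each genotype the high hippocampal libraries carried the lower animal numbers of the labels. Those 5 libraries came from the mice numbered 1, 2, 9, 10 and 11, and the 7 low ones from mice 3, 4, 12, 13, 14, 21 and 29. The labels' batch field gives an Ion code, which was 102, 104, 125, 126 and 127 for the 5 high libraries and 110, 112, 124, 128, 129, 130 and 131 for the 7 low ones. Code 124 was given to both libraries of dipyridamole mouse 4. Every other code marks 1 library, so no value within a code can be had, and the part of animal order in these levels was not tested. Sex did not divide the libraries, since Npc1-/- vehicle mouse 4 and dipyridamole mouse 2 were males with low hippocampal levels, but the 3 Npc1-/- mice with high levels were all male.

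Comparisons between groups were made with edgeR's quasi-likelihood test with sex as covariate over all genes of a tissue, and adjusted p-values are Benjamini-Hochberg over those genes. In cerebellum 9.95% of 12921 genes differed between Npc1-/- and Npc1+/+ vehicle mice at an adjusted p under 0.05, and 0 of the 10 choroid plexus genes did. Their log2 fold changes ran from -0.51 to 0.35, with a median of -0.11 against 0.01 over all genes. The fold change of Ttr was 0.15 ± 1.35 (SE) with an adjusted p of 0.963, and the smallest p belonged to Prlr (-0.45 ± 0.29, adjusted p = 0.379). Single mice moved the value of Ttr, which was -0.68 without Npc1-/- vehicle mouse 3 and 0.54 at its highest when another mouse was left out. Beside Kl, the summed level of 8 Purkinje cell genes was 6243 to 7210 CPM in Npc1+/+ cerebellum and 818 to 1276 CPM in Npc1-/- vehicle cerebellum, while Kl itself was at 66.7 to 125 CPM and 6.59 to 124 CPM.

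In hippocampus 1.62% of 12740 genes differed between Npc1-/- and Npc1+/+ vehicle mice, and again 0 of the 10 genes did (edgeR's quasi-likelihood test, smallest adjusted p = 0.427, for Calml4; 0 of the 10 at an unadjusted p under 0.05). All 10 fitted log2 fold changes were negative, from -4.27 to -1.57 with a median of -2.67, against -0.01 over all genes. The raw group medians differed by less, and not all in that direction. That of Ttr was 1084 CPM in Npc1+/+ and 2223 CPM in Npc1-/- vehicle mice, and that of Clic6 47.7 and 51.3 CPM. The medians of the other members were lower in Npc1-/- vehicle mice, as for Prlr (36.5 and 19.0 CPM). The model takes the sex difference from the Npc1-/- mice, in which all high libraries were male, and removes it from the Npc1-/- males. The all-female Npc1+/+ group is thus compared with Npc1-/- vehicle mice at the level of females, of which that group held 1. Without sex the median was -0.20, with 2 of 10 above 0, and Ttr moved from -3.10 ± 2.58 to 1.33 ± 1.98. With the replicate number as block all 10 were positive, with a median of 1.16. Replicate numbers were not taken to pair mice. In both vehicle groups mice 1 and 2 had the high libraries, so that block overlaps with the split into high and low. The direction of the genotype difference in hippocampus was therefore not determined for these genes.

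**Figure D4:**
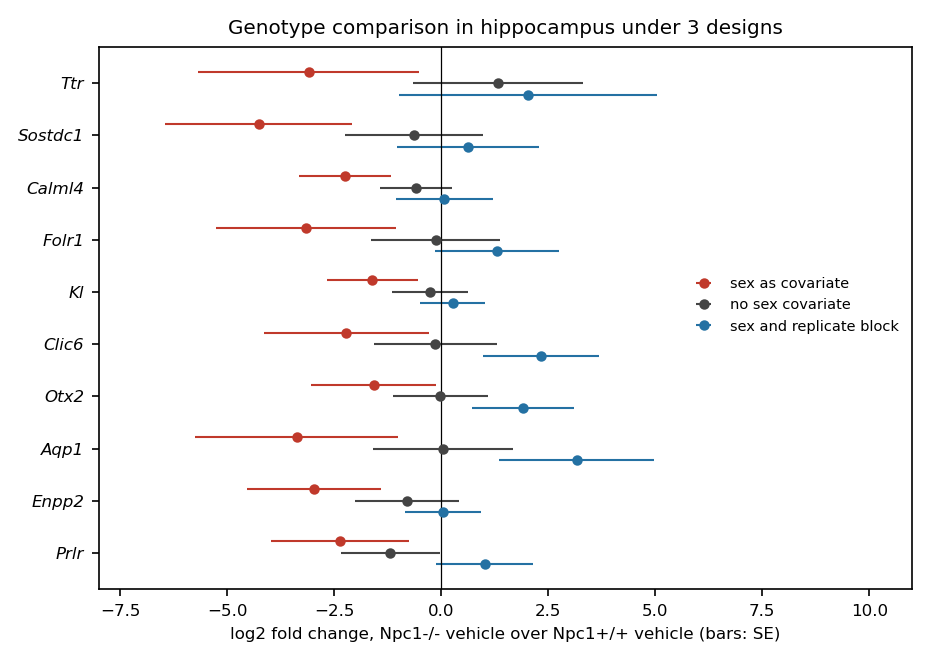
Fitted log2 fold change of each choroid plexus gene between Npc1-/- and Npc1+/+ vehicle mice in hippocampus (points, bars are SE) with sex as covariate, without it, and with sex and the replicate number as block. Ttr lies at -3.10, 1.33 and 2.03 in the 3 designs, and all 10 genes change from negative with sex to positive with the block.

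Dipyridamole gave 0 called genes (0%) in either tissue in edgeR and in DESeq2, with 300 genes in cerebellum and 93 in hippocampus at an unadjusted edgeR p under 0.05 (313 and 102 in DESeq2), and none of the 10 among them in edgeR. In cerebellum the 10 genes had a median log2 fold change of 0.13, from -0.03 to 0.55 for Aqp1 (± 0.54 SE, adjusted p = 1.00). The value of Ttr was 0.26 ± 1.13 (SE), and it was -0.14 without Npc1-/- vehicle mouse 1. In hippocampus all 10 were below 0, with a median of -0.54, and the smallest p was that of Calml4 (-1.13 ± 0.86). Ttr was at -0.12 ± 1.97 (SE). It was -2.93 without dipyridamole mouse 1, 0.74 without dipyridamole mouse 2 and 0.53 without Npc1-/- vehicle mouse 2. Without Npc1-/- vehicle mouse 2 and the library of dipyridamole mouse 4 it was 0.67. None of the 10 genes had groups that did not overlap in any of these 4 comparisons, against 20.6% (genotype, cerebellum), 11.6% (genotype, hippocampus), 1.3% (dipyridamole, cerebellum) and 1.24% (dipyridamole, hippocampus) of the genes tested.

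The difference between tissues was tested over all 24 libraries with the mouse as block. It passed the adjusted threshold for 61.4% of 13436 genes but for only 1 of the 10, Otx2, a smaller share than in the background. Otx2 was lower in hippocampus by a log2 fold change of -1.91 ± 0.58 (SE, edgeR adjusted p = 0.0161), in 11 of 12 mice. The exception was Npc1+/+ mouse 2, with 22.2 CPM in hippocampus and 14.4 CPM in cerebellum. Leaving out each mouse in turn gave -2.26 to -1.67. Ttr, at -1.59 ± 1.86 (SE), was higher in hippocampus in 5 of 12 mice, as were 7 of the other members, and Kl in 6 of 12. The genotype difference did not change between tissues for any of the 10 genes at an adjusted p under 0.05 (1.15% of 13436 genes passed, and the smallest adjusted p among the 10 was 0.895, for Calml4). The interaction test missed most 4-fold changes in simulated counts of this design, so this does not show that the tissues were alike.

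Ttr did not keep a fixed proportion to the other 9 genes in the libraries where these genes were not low. Its log2(CPM + 1) minus the mean of theirs was 4.05 and 3.94 in the cerebellum of Npc1+/+ mice 1 and 2, against 5.54 to 6.66 in the other cerebellar libraries except the low one of Npc1-/- vehicle mouse 1 (1.83). In their hippocampi, which had the 2 highest scores of all libraries, it was 4.53 and 5.06, below the 3 high Npc1-/- libraries, the largest of which was 6.96. In hippocampus no other library reached their mean of the other 9 genes (6.52 and 6.32, against at most 5.94). Npc1+/+ mice 3 and 4, which had low hippocampal levels, were at 5.96 and 6.24 in cerebellum, within the range of the Npc1-/- libraries. In hippocampus they were at 2.27 and 3.10. The low hippocampal libraries of Npc1-/- vehicle mice 3 and 4 were at 3.18 and 5.66. Those of dipyridamole mice 2 to 4 were at 2.59, 4.93 and 3.65. In all these low libraries Folr1, Aqp1 and Calml4 lay near the 1 CPM that is added, and Kl and Enpp2 have other sources. The difference can therefore shrink where choroid plexus levels are low, and whether the proportion changed there was not tested.

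**Figure D5:**
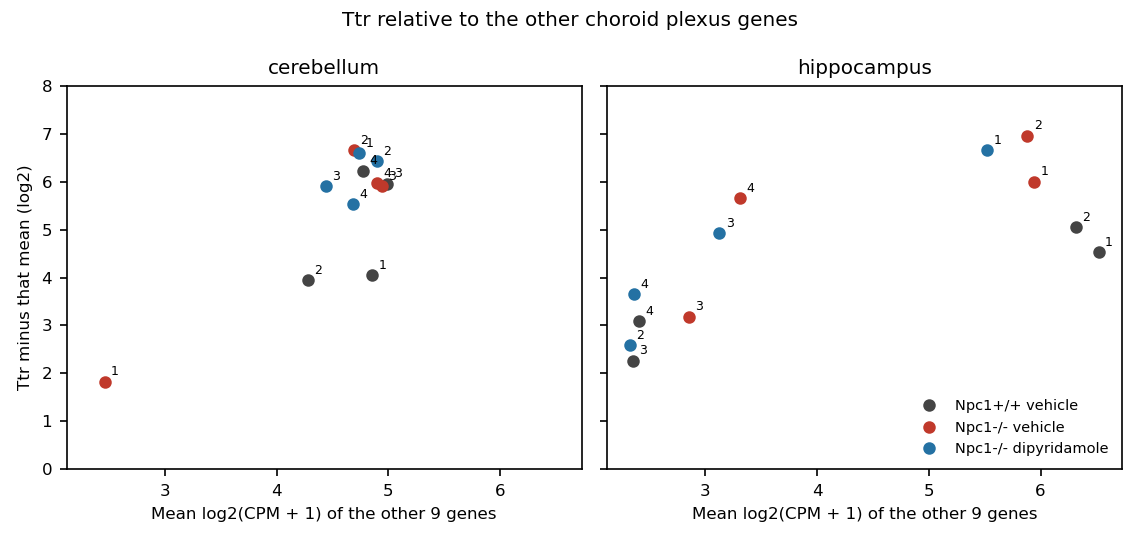
Ttr minus the mean of the other 9 genes, in log2 units, against that mean, with 1 point per library labelled with the mouse number and coloured by group. Npc1+/+ mice 1 and 2 lie at 4.05 and 3.94 in cerebellum and at 4.53 and 5.06 in hippocampus, where they also have the highest means of the other 9 genes.

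Each gene was also tested with the mean of the other 9 as covariate, an alternative chosen after the data were seen. In the hippocampal genotype comparison 1 gene passed, Clic6, which was higher in Npc1-/- vehicle mice by a log2 fold change of 1.44 ± 0.26 (SE, edgeR adjusted p = 0.0164; 1.42% of 12740 genes passed in that fit). The call was kept without the library of dipyridamole mouse 4 (1.42, adjusted p = 0.0298) and lost without sex (0.54, adjusted p = 0.345, where 4.16% of genes passed), without Npc1-/- vehicle mouse 3 (1.31, adjusted p = 0.25) and without Npc1+/+ mouse 4 (1.27, adjusted p = 0.0612). Enpp2 had -1.05 ± 0.39 (SE) with an adjusted p of 0.270 (1.44% of genes passed) and passed without dipyridamole mouse 4 (-1.43, adjusted p = 0.0265) but not without sex (-0.96, adjusted p = 0.0715, where 4.06% passed). The summed level of 14 genes of mature oligodendrocytes, which also express Enpp2, was 4649 to 5502 CPM in Npc1+/+ and 1123 to 1795 CPM in Npc1-/- vehicle hippocampus, and none was at 0 in every library; their part in the Enpp2 value was not tested. Ttr had 1.34 ± 0.69 with an adjusted p of 0.456 (1.46% of genes passed), and passed without sex (1.85, adjusted p = 0.0461; 4.27% of genes passed there).

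All genes were also fitted with the choroid plexus score as a covariate. Then 1257 genes passed the genotype test in cerebellum, 1198 of them among the 1286 without it, and 187 in hippocampus, 175 of them among the 206. Dipyridamole gave 0 genes in both tissues in edgeR, with 212 in cerebellum and 112 in hippocampus at an unadjusted p under 0.05. Of the 10 choroid plexus genes, 1 passed in the hippocampal genotype comparison (Clic6, 1.29 ± 0.24 SE, edgeR adjusted p = 0.0192), and 4 had an unadjusted p under 0.05. The score is the mean of these same 10 genes, so each value is relative to the set. Their median log2 fold change went from -2.67 to 0.16, with 6 of 10 above 0. Such a shift toward 0 with mixed signs follows from the covariate and is no result about the genes. In the other 3 comparisons 0 of the 10 passed.

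A small share of other genes followed the score over the 12 libraries of a tissue. Because 5 libraries were high and 7 low, a correlation in hippocampus mainly says whether a gene divided the libraries in the same way, and it is given as a description with no p. In hippocampus all 45 pairs of the 10 genes had a Pearson r above 0.8 (44 of 45 without dipyridamole mouse 4), with a median of 0.93, and the lowest, 0.80, was that of Ttr and Calml4. Outside the 10, the genes with the highest r to the score were Tmem72, a membrane protein of choroid plexus and kidney (0.99), Slc4a5, a sodium bicarbonate cotransporter (0.99), F5, coagulation factor V (0.98), Wfdc2, a secreted protease inhibitor (0.98), Msx1, a homeodomain factor (0.97), the keratin Krt18 (0.97), Steap1, a metalloreductase-like membrane protein (0.97) and Cldn2, a claudin of leaky tight junctions (0.97). Tmem72 ran from 0 to 32.3 CPM and Slc4a5 from 0.134 to 70.9 CPM over the 12 hippocampal libraries. In all, 48 of 11867 genes had an r above 0.9 in hippocampus (66 without dipyridamole mouse 4).

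In cerebellum the likeness rested on 1 library. The median r of the 45 pairs was 0.80 over 12 libraries and 0.28 without Npc1-/- vehicle mouse 1, and the number of pairs above 0.8 went from 23 to 0. The genes most like the score were Car12, a carbonic anhydrase (0.98), Kcnj13, a potassium channel of the apical membrane (0.97), F5 (0.94), Tmem72 (0.94), Msx1 (0.94), Pum3 (0.90), Spint2 (0.88) and Cldn2 (0.86). Without that library r was 0.80 for Car12, 0.75 for Kcnj13 and 0.81 for Msx1, but 0.30 for Pum3, 0.28 for Spint2 and 0.32 for Cldn2. The number of genes above 0.9 went from 7 to 0. Of the 100 genes most like the score in each tissue, 23 were shared, or 13 without the library apart in each tissue.

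Other genes of the choroid plexus epithelium went with the score in hippocampus and less so in cerebellum. They form a list of 31 further epithelial genes, drawn up with earlier results of these data known. It holds all 8 genes named above as most like the score in hippocampus, so its r values are not separate from that ranking. In hippocampus 23 of its 29 measured genes had an r above 0.8 with the score (median 0.96). The 4 of highest mean level were Slc12a2, a cotransporter of sodium, potassium and chloride (r 0.71, 115 to 336 CPM), Igfbp2, which binds insulin-like growth factors (r 0.95, 30.6 to 226 CPM), Car12 (r 0.79, 8.66 to 145 CPM, and r 0.92 without dipyridamole mouse 4) and Slc4a2, an anion exchanger (r 0.97, 29.7 to 133 CPM). In cerebellum 9 of 26 were above 0.8 (median 0.65), and 2 without Npc1-/- vehicle mouse 1 (median 0.34). The 4 of highest mean level there had an r of 0.04 (Slc12a2), 0.46 (Igfbp2), 0.08 (Slc4a2) and 0.11 (Car14). By group, 0 of these genes passed either genotype test (28 tested in cerebellum, 30 in hippocampus) or either dipyridamole test. In the tissue difference 9 of 30 passed, 2 higher in hippocampus (Car12 and Cldn3) and 7 lower, with Slc12a2, which other brain cells also express, at -1.36 ± 0.10 (SE, edgeR adjusted p = 4.96e-10).

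Markers of neighbouring cells and regions had lower median r. For ependyma and motile cilia the median r in hippocampus was 0.66 over 10 measured genes, 3 of them above 0.8 (median 0.65 without dipyridamole mouse 4). The 4 of highest mean level were Ccdc39 (r 0.47), Ccdc153 (0.64), Foxj1, the regulator of motile cilia (0.82, 3.92 to 28.0 CPM), and Tmem212 (0.53). The 15 ependymal genes summed, in hippocampus, to 57.7 to 151 CPM (Npc1+/+), 99.1 to 129 CPM (Npc1-/- vehicle) and 65.4 to 140 CPM (dipyridamole), and 1 of the 15 was at 0 in every hippocampal library. In cerebellum their median r was -0.05. For choroid stroma, fenestrated endothelium and meninges the median r in hippocampus was -0.01, and 0.18 without dipyridamole mouse 4. Of this list Dcn, a proteoglycan of fibroblasts, was above 0.8 (0.84, 51.8 to 168 CPM), while Plvap, the marker of fenestrated vessels, was at -0.09, Aebp1 at 0.12 and Col1a1 at 0.31. The stroma list summed, in hippocampus, to 145 to 220 CPM (Npc1+/+), 189 to 288 CPM (Npc1-/- vehicle) and 178 to 293 CPM (dipyridamole). Genes of the striatum and septum beside the lateral ventricle had a median r of 0.56 over the 3 measured, and 0.53 without dipyridamole mouse 4. The sum of that list's 8 genes in hippocampus ran from 52.5 to 105 CPM over the Npc1+/+ mice, from 66.0 to 104 over the Npc1-/- mice given vehicle, and from 79.7 to 132 over those given dipyridamole, and their part in the score was not tested. Genes of the thalamus and habenula, which adjoin the hippocampus, had a median r of -0.10 (0.06 without that mouse), those of hippocampal identity 0.23 (-0.20 without it), and those of mature oligodendrocytes 0.15 (0.06 without it), with none above 0.8. Blood genes summed to at most 5.73 CPM in hippocampus, with 4 of 5 at 0 in every library. Only Alas2 was counted there, so the list does not measure how much blood a piece held. Genes of the brainstem beside the fourth ventricle had a median r of -0.003 in cerebellum over 7 measured. Their sum there was 87.6 to 148 CPM (Npc1+/+), 155 to 281 CPM (Npc1-/- vehicle) and 164 to 218 CPM (dipyridamole). Slc6a5, the gene of highest mean level in this list there, was at 45.8 to 185 CPM. Of 7 tested, 2 (Th and Chat) were called higher in Npc1-/- vehicle cerebellum, where 9.95% of all genes were called. Whether the RNAs of this list came from brainstem or from cells of the cerebellum itself was not tested. The sum is therefore not read as an amount of brainstem, and its part in the score was not tested. No test was made of the differences in r between lists.

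Since the 10 genes moved together in hippocampus and Otx2 encodes a transcription factor, the promoters that RefSeq gives were searched for TAATCC, a motif of Otx2-type homeodomains, on both strands. RefSeq promoters of 300 bases (GRCm38.p6, 250 before to 50 after the start) were at hand for 5 of the 10 genes (Calml4, Kl, Otx2, Aqp1 and Prlr), as 10 windows. The motif was in 1 of the 10 windows, and in 7.06% of all 32851 promoters of the table. That window is of Otx2 itself, at chr14:48665060-48665359 on the minus strand, and is shown because it is the only match, with the motif's reverse complement in capitals 211 bases before the start.
Otx2: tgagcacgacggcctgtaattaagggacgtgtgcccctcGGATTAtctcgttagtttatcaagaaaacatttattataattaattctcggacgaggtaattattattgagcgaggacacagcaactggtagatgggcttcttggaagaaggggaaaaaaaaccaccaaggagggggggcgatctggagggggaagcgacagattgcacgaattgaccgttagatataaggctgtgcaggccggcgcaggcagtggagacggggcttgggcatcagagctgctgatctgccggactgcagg
A match describes the letters only.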

How the data were processed

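The deposited files hold raw read counts per gene, 1 file for each of 24 libraries, with no normalization by the authors. The submitters' processing notes name FastQC 0.11.9, Trimmomatic 0.39, STAR 2.7.9a, featureCounts 2.0.3 and the build GRCm39. Counting used GENCODE vM34 without strand, per the file headers. Of 57126 IDs, 51884 had a symbol, and the rest held 0.21% of counts. CPM are counts scaled to TMM-adjusted library sizes. Groups follow the labels (tissue, genotype, treatment). No 2 replicates were alike within counting noise (chi-square over degrees of freedom 6.64 to 43.4 in 36 pairs), so each library counted as a replicate.

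Tests within a tissue used edgeR 4.0.16 (R 4.3.3; TMM, filterByExpr, robust quasi-likelihood test, sex as covariate, 12 libraries, threshold 0.05), and DESeq2 1.42.0 was an alternative. The tissue difference, averaged over the 3 groups, used 24 libraries with the mouse as block. The genotype by tissue interaction used the same libraries and block, with sex interacting with tissue. Tissues were paired by the labels' animal numbers. On simulated counts with known changes, fold changes were recovered without bias in all 6 comparisons, and most 4-fold changes were called in 5 of them, but the interaction test called only a minority of the 4-fold changes. The 10 genes, the marker lists, the motif and the designs were chosen with earlier results of these data known. The rule for other named genes was the 8 with the highest r to the score in each tissue (mean CPM 2 or above), and in the marker lists the genes of highest mean CPM. Genes named outside it were chosen after their values were seen. Alternatives were other scalings, filters, tools and covariates, a replicate block, no mouse block, and leaving out each mouse.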

Additional observations from a re-analysis of the deposited data

Results flagged for a closer look

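Each library was set against the other 3 of its group. This was done for totals, the score, the 10 genes and the sums of both tissue identity lists. In 11 of 84 such checks a library lay farther from the rest than a gap test at 95% allows. For a single check chance gives about 1 in 20. The checks are not independent, since the score is the mean of the 10 genes, so no excess is read from the 11. In the cerebellum of Npc1-/- vehicle mouse 1 the flagged values were the score (2.65 against 5.36 to 5.53), Ttr (4.29 in log2(CPM + 1), against 10.86 to 11.35), Folr1 (0.16), Clic6 (2.04) and Enpp2 (6.33). In the cerebellum of Npc1+/+ mouse 2, Clic6 (4.49) and Aqp1 (2.25) were low. In the cerebellum of dipyridamole mouse 3, Kl was low at 6.14 against 6.66 to 6.70. Low totals, in log2 counts, were those of the cerebellum of Npc1-/- vehicle mouse 2 (20.81) and of dipyridamole mouse 2 (22.54). The cerebellar identity sum, in log2 CPM, was low in the hippocampus of Npc1+/+ mouse 3 (5.93 against 6.29 to 6.36). In hippocampus no choroid plexus gene was picked out, and each group held both high and low libraries.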

How the results depend on the processing

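The number of choroid plexus genes past the threshold was 1 of 10 (Otx2) in the tissue difference and 0 in the other 5 comparisons, and was the same in the 105 alternatives that did not use the choroid plexus genes as a covariate. With the score as covariate 1 of the 10 genes (Clic6), itself part of the score, passed the genotype test in hippocampus. Counts over all genes moved by over 1.5 times as follows. The genotype count in cerebellum (1286) was 2249 without sex and 421 with only the groups compared; in hippocampus (206) it was 419 in DESeq2, 490 without sex and 47 with only the groups compared. Dipyridamole in cerebellum gave 13 genes with no filter. The interaction (155) gave 348 with neither the mouse block nor the tissue by sex term, and 386 without the tissue by sex term alone. Leaving out 1 mouse gave 474 to 1866 (lowest without Npc1-/- vehicle mouse 3) and 31 to 238 (118 and 102 without Npc1+/+ mice 2 and 3, 31 without Npc1-/- vehicle mouse 3) for genotype, 0 for dipyridamole in both tissues, 7903 to 8490 for the tissue difference and 27 to 227 for the interaction (90 without Npc1+/+ mouse 3, 27 without Npc1-/- vehicle mouse 3).

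Replicate numbers were not taken to pair mice across groups. Same-numbered libraries correlated over an r of 0.1 in 3 of 12 pairs in cerebellum and 5 of 12 in hippocampus. Differently numbered libraries were not compared, so these values do not decide whether the numbers pair mice. With a replicate block the genotype count was 613 in cerebellum and 55 in hippocampus, Ttr went from 0.15 to -0.94 and from -3.10 to 2.03, and Calml4 in hippocampus from -2.25 to 0.074. Ttr also changed sign without the doubted libraries (genotype in cerebellum -0.019, without Npc1-/- vehicle mouse 2, and dipyridamole in hippocampus 0.67) and without sex (genotype in hippocampus 1.33). In the interaction (-1.46) Ttr changed sign with neither the mouse block nor the tissue by sex term (0.056), and without the tissue by sex term alone (1.498). Leaving out 1 mouse gave Ttr -0.68 to 0.54 and -3.63 to -2.08 for genotype (cerebellum, hippocampus), -0.14 to 0.75 and -2.93 to 0.74 for dipyridamole, and -4.10 to 2.84 for the interaction. The cause of these changes was not tested. The correlation of the score between tissues over mice, and its alternatives, were not run because the hippocampal values form separate sets. Calml4 had at most 88 counts in a library, which limits its precision.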
